A study of Mus musculus with 12 samples.

Results

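CD8+ T cells, the cytotoxic lymphocytes that kill infected and malignant cells, had been taken from lymph nodes of male C57BL/6J mice aged 8 weeks. The animals were held in constant darkness, so that only their own clock kept time. Compared here are the 2 libraries of circadian time (CT) 18, the middle of the subjective night when mice are active, and the 2 libraries of CT6, the middle of the subjective day. The groups lie 12 h apart, at opposite phases of the cycle, and each has 1 library from day 1 and 1 from day 2. The 4 of 12 libraries were taken by the time their labels give. The other 8, from CT2, CT10, CT14 and CT22, helped to estimate the spread between libraries and served for a comparison of the neighbouring times. All groups share strain, sex, age, tissue and lighting, and no drug or mutation is involved. Neither the isolation method nor the number of animals behind a library is stated in the sources used here. The spread that the p-values rest on is therefore that of these libraries, and it may be technical.

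The molecular clock is a feedback loop in which CLOCK and BMAL1 (gene Arntl) switch on the Per, Cry and Nr1d genes, whose products then repress that drive. Body temperature, feeding and hormones also follow the daily cycle and reach every tissue. Chaperones of the Hsp70 and Hsp90 systems fold proteins and are induced by heat shock factor 1 when protein folding is stressed, while Cirbp and Rbm3 encode RNA-binding proteins induced by mild cold. Resting T cells draw much of their energy from mitochondria, and carnitine palmitoyltransferase 1A, the product of Cpt1a, admits long-chain fatty acids to them for oxidation.

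The labelled cell type was checked against its defining genes. Cd8a, which encodes the CD8 alpha chain, stood at 1234 and 1383 CPM (counts scaled to library size) at CT6 and at 1450 and 1411 CPM at CT18. Cd8b1, the beta chain gene, had 1012 and 1095 CPM at CT6 and 1076 and 1091 CPM at CT18. Markers of other cells were present too, above all of B cells, whose 15 markers summed to 2349 to 2576 CPM at CT6 and 2310 to 2541 CPM at CT18. The 15 monocyte and macrophage markers summed to 874.7 and 1179 CPM at CT6 and to 1239 and 1344 CPM at CT18, so that these sums did not overlap. All 15 were higher on average at CT18, by a median of 0.37 log2. None reached an unadjusted p under 0.05, though up to 12 did under alternatives. The sum of 9 stromal and endothelial markers went the other way, from 194.5 and 167.5 CPM at CT6 to 162.4 and 153.2 CPM at CT18. Most of it was Pecam1 alone, with 157.7 and 153.8 CPM at CT6 and 142.8 and 136.1 CPM at CT18. The sum therefore says little about the other markers, among which Ccl21a had 10.51 and 0.30 CPM at CT6 and 2.09 and 1.94 CPM at CT18. Of the 9 genes, 7 had a negative and 2 a positive difference. The sums of B cell, neutrophil, NK, dendritic and CD4 T cell markers overlapped between the times, and of 6 erythroid markers only 1 had enough counts to be tested. The CT6 libraries also stood apart in ribosomal RNA that had passed the polyA selection, with 5476 and 6674 CPM over 7 genes against 10350 and 11690 CPM at CT18 and 7444 to 16170 CPM in the other 8 libraries. Rn7sk, the small nuclear RNA that holds back transcription elongation, showed the same order, with 12.72 and 13.93 CPM at CT6 and 44.38 and 59.57 CPM at CT18. Library depth was alike, from 26174929 to 27101442 counts on genes in these 4 libraries. The 2 days differed more at CT6 than at CT18, with an SD of the day 2 to day 1 log2 difference across genes of 0.243 and 0.123.

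**Figure D1:**
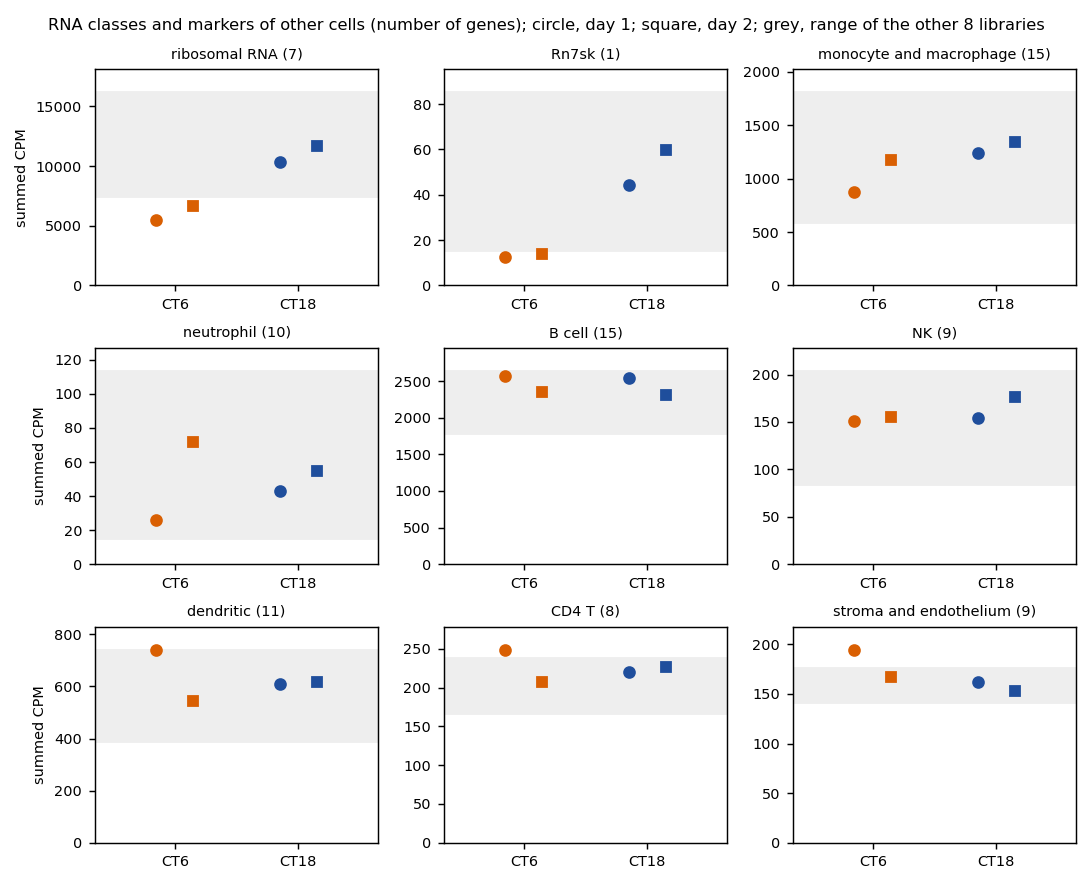
Summed CPM (vertical axes) of 2 RNA classes and 7 sets of cell markers in the CT6 (orange) and CT18 (blue) libraries, circles for day 1 and squares for day 2, with the range of the other 8 libraries in grey. Ribosomal RNA and Rn7sk at CT6 lie below the range of the other 8 libraries, and the monocyte and macrophage sums at CT18 lie above both CT6 sums.

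Between the 2 phases, 3 genes changed at an adjusted p under 0.05 in edgeR's quasi-likelihood test. Hsph1, which encodes the Hsp70 partner Hsp110, and Ahsa2, which encodes an activator of the Hsp90 ATPase, rose at CT18. Cpt1a fell at CT18. These were 0.0122% higher and 0.0061% lower of 16396 genes tested, and the median difference over all genes was 0.0029 log2. At an unadjusted p under 0.05 there were 528 higher genes (3.22%) and 465 lower (2.84%), 993 in all, where chance alone gives 819.8. Both CT18 libraries were above both CT6 libraries in 20.4% of genes and below both in 18.3%.

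Hsph1 had 90.04 and 96.03 CPM at CT6 and 153.2 and 160.2 CPM at CT18. Its groups did not overlap, and the difference was 0.75 ± 0.09 log2 (SE), or 1.69-fold, with an adjusted p of 0.0302. Ahsa2 had 23.33 and 23.7 CPM at CT6 and 33.61 and 34.16 CPM at CT18. Its libraries agreed closely within each time, and the difference was 0.53 ± 0.06 log2 with the same adjusted p. Cpt1a had 94.99 and 110.9 CPM at CT6 and 58.98 and 62.24 CPM at CT18. Both CT18 values were well below both CT6 values, a difference of -0.76 ± 0.09 log2, again with an adjusted p of 0.0302. On GRCm38, Hsph1 lies on the minus strand at chr5:149614287-149636376 (ENSMUSG00000029657.15), Ahsa2 on the minus strand at chr11:23487882-23498030 (ENSMUSG00000020288.13) and Cpt1a on the plus strand at chr19:3322334-3385733 (ENSMUSG00000024900.4).

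These 3 calls were close to the threshold. With the day as a replicate block, 0 genes were higher and 0 lower, and the rounded expected counts of RSEM also gave 0 each way. All 3 calls were lost without CT6 of day 1 or day 2 (the latter called 3 immunoglobulin segments instead), CT14 of either day, CT18 of either day or CT22 of day 1. Without CT22 of day 2 only Cpt1a passed, and without CT10 of either day Ahsa2 no longer did while Hspa1a and Hspa1b joined. Leaving out either CT2 library, or both, kept the 3 genes and raised the count to 5 higher and 3 lower. DESeq2 called 11 higher and 4 lower. The 3 calls were unchanged when ribosomal RNA, Rn7sk and other small RNA genes were left out before scaling.

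**Figure D2:**
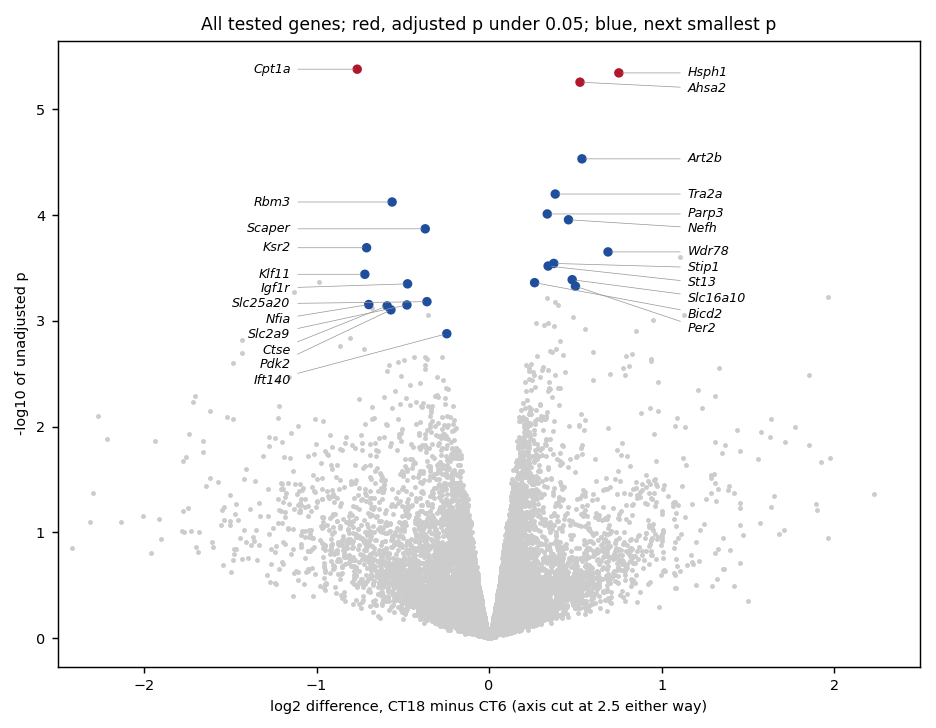
Log2 difference (horizontal axis, CT18 minus CT6) and -log10 of the unadjusted p (vertical axis) of the tested genes, with 19 genes beyond 2.5 log2 outside the plot. The 3 genes with an adjusted p under 0.05 are red, and the next genes by p among those averaging 5 CPM or more, which did not pass, are blue.

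Promoter sequences are shown for these 3 genes and for Hspa1b, the inducible Hsp70 gene with the largest named difference, because heat shock factor 1 acts through heat shock elements near the start of chaperone genes. The sequences are RefSeq's on GRCm38.p6, 5′ to 3′ on the gene's own strand, and begin 250 bases before the start of transcription. They end just before the start, except that for Hsph1 the last 10 bases are left off. Capitals mark a heat shock element, searched as GAANNTTC or TTCNNGAA, which may overlap, or an E-box, searched as CACGTG, on both strands. The stretches are chr5:149636347-149636586 (minus) for Hsph1, chr17:34959239-34959488 (minus) for Hspa1b, chr11:23498040-23498289 (minus) for Ahsa2 and chr19:3323051-3323300 (plus) for Cpt1a.
Hsph1: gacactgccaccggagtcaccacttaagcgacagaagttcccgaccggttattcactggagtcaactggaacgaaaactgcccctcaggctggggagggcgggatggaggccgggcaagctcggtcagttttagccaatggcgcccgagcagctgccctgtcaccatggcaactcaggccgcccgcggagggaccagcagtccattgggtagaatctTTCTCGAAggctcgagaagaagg
Hspa1b: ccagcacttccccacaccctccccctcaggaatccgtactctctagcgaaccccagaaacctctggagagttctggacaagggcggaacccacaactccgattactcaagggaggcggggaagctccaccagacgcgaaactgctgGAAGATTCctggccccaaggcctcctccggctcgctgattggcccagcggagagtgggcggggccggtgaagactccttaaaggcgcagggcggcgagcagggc
Ahsa2: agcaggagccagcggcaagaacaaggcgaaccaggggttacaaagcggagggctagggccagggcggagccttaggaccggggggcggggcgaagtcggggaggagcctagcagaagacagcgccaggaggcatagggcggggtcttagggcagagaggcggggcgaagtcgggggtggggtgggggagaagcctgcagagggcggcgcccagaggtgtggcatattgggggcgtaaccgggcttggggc
Cpt1a: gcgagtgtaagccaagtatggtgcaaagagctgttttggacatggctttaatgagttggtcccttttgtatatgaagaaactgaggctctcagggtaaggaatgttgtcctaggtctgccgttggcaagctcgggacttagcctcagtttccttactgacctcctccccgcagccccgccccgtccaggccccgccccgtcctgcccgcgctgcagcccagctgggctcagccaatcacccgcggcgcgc

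The Hsph1 stretch holds 1 heat shock element, whose first base lies at -33 from the start used here, 1 of 2 in the table. Another 2 overlapping ones begin at 37 and 42 after that start, and an E-box begins at 3. GENCODE's Hsph1 gene reaches further upstream, so that 30 of the printed Hsph1 bases, the element at -33 among them, lie in an annotated exon, as do 16 of the printed Cpt1a bases. Hspa1b holds 1, with its first base at -104. The windows of Ahsa2 and Cpt1a, 250 bases before and 50 after the start, hold neither motif. Of the 40 chaperone genes described next, 33 had a promoter in the table, and 14 of these (42.4%) held a heat shock element at 1 or more of their starts, against 16.97% of 27025 genes. The 8 matches among the 15 chaperone genes with an unadjusted p under 0.05 stood beside 6 among the other 18. The 24 genes named by p are the 12 of smallest p in each direction among those averaging at least 5 CPM. Predicted genes, pseudogenes and antigen receptor segments were left out. Of these 24, 18 had a promoter. Among the 18, 1 held a heat shock element (Hsph1), 4 held an E-box (Hsph1, Scaper, Klf11 and Pdk2) and 0 a D-box, the site of PAR bZIP clock factors (TTATGTAA or TTACATAA). Of 32851 promoters, each start taken alone, 15.1%, 7.15% and 0.938% held them. A gene counted if any of its starts held the motif, and Scaper and Pdk2 hold the E-box at only 1 start. The floor of 5 CPM left out Hspa1b and Hspa1a, which had a smaller p than some of the 24 and hold a heat shock element at -104.

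The other genes of the Hsp70 system were also higher at CT18 in most cases, without passing after adjustment. Hspa8, the constitutive Hsp70 and one of the most abundant chaperone messages, had 1113 and 1173 CPM at CT6 and 1585 and 1520 CPM at CT18, a difference of 0.44 ± 0.12 log2. Hspa1b had 0.57 and 0.83 CPM at CT6 against 6.03 and 6.99 CPM at CT18, or 9.27-fold. Hspa1a had 0.28 and 0.34 CPM against 2.62 and 2.67 CPM. These 2 genes are near-identical copies on chromosome 17, so the split of counts between them is uncertain, but both were low at CT6 in both libraries. Of the 8 tested Hsp70 and Hsp110 genes, 6 had an unadjusted p under 0.05, all higher, beside 3.22% of all genes. The median of the 8 was 0.34 log2. Hspa14 was the exception in sign, at -0.05 ± 0.07 log2.

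Co-chaperones that hand clients from Hsp70 to Hsp90 showed a similar step. Stip1, the adaptor that binds both chaperones, had 122.5 and 137.5 CPM at CT6 and 167.3 and 169.9 CPM at CT18 (0.38 ± 0.07 log2, adjusted p = 0.33). St13, which encodes the Hsp70-interacting protein Hip, had 101.6 and 108.5 CPM at CT6 and 132.1 and 134.3 CPM at CT18 (0.34 ± 0.07 log2). Fkbp4, an Hsp90-bound immunophilin of steroid receptor complexes, differed by 0.37 ± 0.09 log2. Ptges3, the p23 co-chaperone gene, and Chordc1 differed by 0.35 ± 0.09 and 0.31 ± 0.08. The Hsp90 genes themselves were less clear. Hsp90aa1, the inducible form, had 287.8 and 259.9 CPM at CT6 and 321.3 and 330.9 CPM at CT18 (0.25 ± 0.19 log2), and Hsp90ab1, the constitutive form, differed by 0.19 ± 0.09. Of 12 tested genes of this group, 6 had an unadjusted p under 0.05, all higher, and 10 had both CT18 libraries above both CT6 libraries, beside 3.22% and 20.4% of all genes.

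Among Hsp40 co-chaperones, which stimulate the ATPase of Hsp70, Dnajb1 had 84.63 and 86.6 CPM at CT6 and 113.8 and 109.1 CPM at CT18 (0.38 ± 0.08 log2). Dnaja1 had 173.7 and 170.6 CPM at CT6 and 232.7 and 226 CPM at CT18 (0.41 ± 0.12). All 10 tested Hsp40 genes had a positive difference, beside 8316 of 16396 genes, but the median was only 0.08. Of the 10, 4 had an unadjusted p under 0.05, beside 3.22% of all genes in the higher direction. The chaperonins, closed folding chambers, were similar, with 10 of 10 positive, a median of 0.08 and 2 below that p. Hspd1, the mitochondrial Hsp60, differed by 0.26 ± 0.07 log2 and Cct3, a subunit of the cytosolic TRiC chamber, by 0.21 ± 0.07. The genes of heat shock factors and other stress proteins did not clearly follow, with 5 positive, 3 negative and a median of 0.04 log2. Groups did not overlap in the higher direction in 2 of them, beside 20.4% of all genes. These were Bag3 (0.22 ± 0.18) and Hmox1 (0.98 ± 0.57). Hsf1 had 51.29 and 58.97 CPM at CT6 and 58.6 and 58.88 CPM at CT18, and none of the 8 genes of that list had an unadjusted p under 0.05.

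Over the 4 chaperone lists together, 2 of 40 tested genes passed and 18 had an unadjusted p under 0.05, all of them higher. That is 45% of the members beside 3.22% of all genes, and 33 of 40 had groups that did not overlap in the higher direction beside 20.4% of all genes. The lists were drawn up with earlier results of these data known, so their direction is no independent evidence. In every alternative tried, 14 to 24 of these genes had an unadjusted p under 0.05 and were higher, and none was lower. In bulk RNA a change per cell and a change in the share of cells that carry the message cannot be told apart. The monocyte and macrophage markers and ribosomal RNA, both higher at CT18 as given above, moved in the same direction, and the part of the markers in the chaperone differences was not tested. With ribosomal and small RNA genes left out, 19 of the 40 were higher at that p, and the median of 0.19 log2 did not move at 2 decimals. That fit only takes these genes out before scaling, so it is no test of other differences between the CT6 and CT18 libraries.

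**Figure D3:**
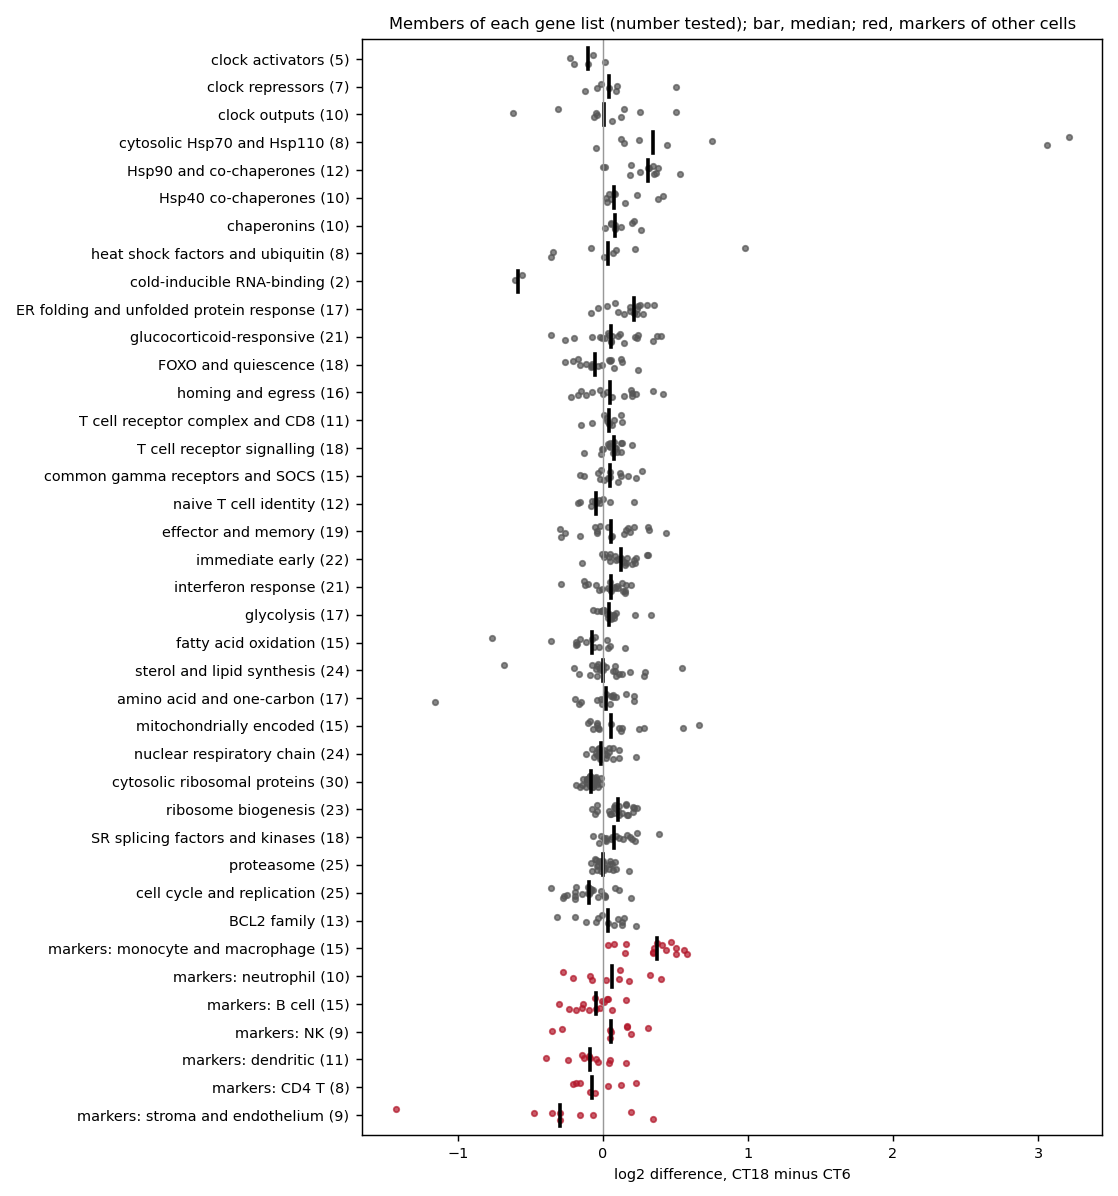
Log2 difference, CT18 minus CT6 (horizontal axis), of each tested member (points) of 39 gene lists, with the median as a bar, in red for markers of other cells. The chaperone, endoplasmic reticulum and monocyte lists lie mostly right of 0, the 2 cold-inducible genes and the ribosomal protein genes left of it.

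The cold-inducible genes had the opposite sign. Rbm3 had 382.9 and 353.1 CPM at CT6 and 243.6 and 254.9 CPM at CT18, a difference of -0.56 ± 0.09 log2 with an adjusted p of 0.20. Cirbp had 105.4 and 113.1 CPM at CT6 and 67.59 and 75.7 CPM at CT18 (-0.61 ± 0.17 log2, adjusted p = 0.70). Neither passed. In both genes each CT6 library was above each CT18 library, which was also the case in 18.3% of all genes. DESeq2 called Rbm3, and so did the fits without CT2 libraries.

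In the endoplasmic reticulum, where secreted and membrane proteins fold, the chaperone genes mostly had higher values at CT18, and 0 of 17 tested genes passed. Hyou1, an Hsp70 relative of this compartment, had 112.4 and 128.1 CPM at CT6 and 143.4 CPM in both CT18 libraries (0.25 ± 0.07 log2). Calr, the calcium-binding lectin chaperone calreticulin, had 422.4 and 477.7 CPM at CT6 and 517.5 and 542.1 CPM at CT18 (0.24 ± 0.07). Of the 17, 8 were higher at an unadjusted p under 0.05 and 13 had groups that did not overlap in that direction, beside 3.22% and 20.4% of all genes, and the median was 0.21. Atf4, Ddit3 and Xbp1, transcription factor genes of the unfolded protein response, were not among them. They were at 0.03 ± 0.08, -0.09 ± 0.10 and 0.08 ± 0.09 log2. The count of 8 fell to 2 or rose to 12 under alternatives.

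Fatty acid oxidation genes mostly had lower values at CT18, led by Cpt1a. Slc25a20, which encodes the carnitine-acylcarnitine carrier that acts right after Cpt1a, had 28.25 and 30.09 CPM at CT6 and 22.07 and 23.37 CPM at CT18. Its groups did not overlap, and the difference was -0.36 ± 0.08 log2 with an adjusted p of 0.38. The dehydrogenase genes Acadl and Hadh each differed by -0.18 ± 0.07 log2. Cpt2, the inner membrane partner of Cpt1a, was at 0.03 ± 0.11, and Hadha, of the trifunctional protein, at -0.06 ± 0.06. Of 15 tested genes, 1 passed and 4 had an unadjusted p under 0.05, all lower, beside 2.84% of all genes, 11 had a negative difference, and the median was -0.07. The groups did not overlap in the lower direction in 9, beside 18.3% of all genes. Pdk2, a pyruvate dehydrogenase kinase that spares glucose carbon, had 11.29 and 12.11 CPM at CT6 and 7.32 and 8.45 CPM at CT18 (-0.57 ± 0.12), without passing.

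None of the clock genes passed between these opposite phases. Per2, a repressor of CLOCK and BMAL1, had 12.18 and 10.26 CPM at CT6 and 16.08 and 15.69 CPM at CT18, a difference of 0.50 ± 0.10 log2 that did not pass (adjusted p = 0.35). Ciart, a clock-controlled repressor, had 2.67 and 3.07 CPM at CT6 and 4.25 and 3.88 CPM at CT18, also 0.50 log2 with an SE of 0.18. Arntl had 27.6 and 27.1 CPM at CT6 and 23.67 and 27.1 CPM at CT18 (-0.11 ± 0.09). Clock stood at 0.01 ± 0.07 log2, and its paralog Npas2, under 1 CPM, at -0.07 ± 0.58. Rora, a receptor gene whose product acts on the Arntl promoter as an activator, differed by -0.23 ± 0.11.

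The other Per, Cry and Nr1d genes each differed by less than 0.15 log2. Per1 was at 0.04 ± 0.09, Per3 at -0.13 ± 0.22, Cry1 at -0.02 ± 0.10 and Cry2 at 0.09 ± 0.11. Nr1d1, the REV-ERBα gene, had 7.12 and 7.23 CPM at CT6 and 7.02 and 6.91 CPM at CT18 (-0.04 ± 0.12 log2), and its relative Nr1d2 was at 0.09 ± 0.10. Among output genes, which the loop drives through E-boxes and D-boxes, Dbp, Tef and Hlf of the PAR bZIP family were at -0.04 ± 0.10, -0.05 ± 0.08 and 0.25 ± 0.28. Nfil3, the repressor at the same sites, was at 0.14 ± 0.24. Bhlhe40 and Bhlhe41, repressors at E-boxes, were at -0.06 ± 0.25 and -0.62 ± 0.43, the latter below 1 CPM. Wee1, Nampt and Usp2 were at 0.13 ± 0.20, 0.06 ± 0.12 and -0.31 ± 0.20. Of the 22 clock genes, 2 had an unadjusted p under 0.05 (Per2 and Ciart, both higher), 15 differed by less than 0.15 log2 and 13 had overlapping groups. Over all genes 6.06% were below that p and 61.2% had overlapping groups, so neither share sets the clock genes apart.

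**Figure D4:**
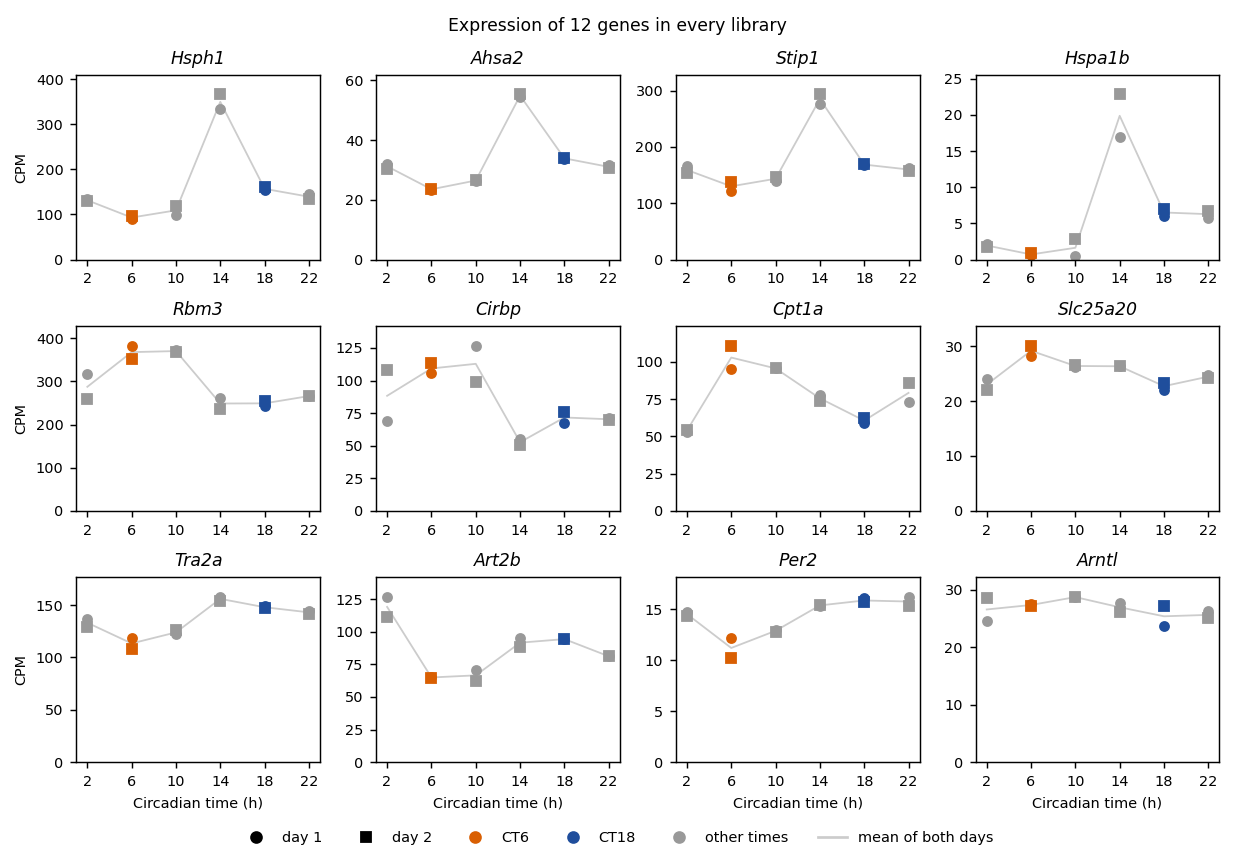
CPM (vertical axes, from 0) of 12 genes against circadian time in h, circles for day 1 and squares for day 2, CT6 in orange, CT18 in blue, other times in grey, and a line through the means of both days. Hsph1, Ahsa2, Stip1 and Hspa1b are lowest at CT6 and highest at CT14, Cpt1a is highest at CT6, and Arntl stays between 23 and 29 CPM.

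CT18 lies midway between CT14 and CT22, and CT6 midway between CT2 and CT10, so the 8 other libraries allow a comparison of the neighbouring times. The mean of CT14 and CT22 minus the mean of CT2 and CT10, called the flank difference here, takes its values from none of the 4 libraries above, but its test shares their estimate of the spread. In it 38 genes were higher (0.232%) and 43 lower (0.262%). Of these 81 genes, 75 had the same sign between CT18 and CT6, and 39 also had an unadjusted p under 0.05 there. Only Hsph1 and Ahsa2 passed both. Their flank difference came mostly from CT14, with CT22 about level with CT2. Hsph1 had means of 349.5 CPM at CT14, 139.2 at CT22, 131.3 at CT2 and 109 at CT10. Ahsa2 had 54.89, 31.03, 31.22 and 26.46 CPM in the same order. Of the 993 genes with an unadjusted p under 0.05 between CT18 and CT6, 80.5% had the same sign at the flanks, beside 60.2% of all tested genes. The flank counts depended on single libraries and ran from 2 to 1017 higher and from 0 to 724 lower when 1 was left out. Without 1 CT18 library, of either day, they were 11 and 1, and without 1 CT6 library 17 and 10. The highest in each direction came without CT2 of day 1, and the lowest count of higher genes without CT14 of day 2 or CT22 of day 1.

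For a smooth 24 h wave, the difference between CT18 and CT6 is 2 times the flank difference. Such a wave gives 1.77 log2 for Hsph1, which differed by 0.75, with a mean of 349.5 CPM at CT14 and 156.7 CPM at CT18. Ahsa2 had 1.04 against 0.53 and Stip1 0.998 against 0.38 by the same reckoning. Their means at CT14 were 54.89 and 284.9 CPM. Of the 40 chaperone genes, 31 had their highest mean at CT14 and 22 their lowest at CT6, beside 2977 and 2746 of 16396 genes. None of this group had its highest mean at CT18.

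For Cpt1a the wave through the other times had the opposite sign, 0.22 log2 beside the measured -0.76. Its mean was highest at CT6 (103 CPM), 95.67 CPM at CT10, 75.58 at CT14, 60.61 at CT18, 79.22 at CT22 and lowest at CT2 (53.9 CPM). Rbm3 came close to a wave, with -0.69 predicted and -0.56 measured, and so did Per2, with 0.37 and 0.50. Cirbp lay further off, with -1.43 predicted and -0.61 measured. The departure from a wave was itself tested. In edgeR's quasi-likelihood test 0 genes passed (0% of 16396), 1404 had an unadjusted p under 0.05, the smallest adjusted p was 0.397, and DESeq2 called 9. Hsph1, Cpt1a, Mthfsd and Ubfd1 had the smallest p. Mthfsd was at 0.06 ± 0.07 log2 between CT18 and CT6 with a flank difference of -0.36, and Ubfd1 at 0.18 ± 0.06 with 0.39.

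**Figure D5:**
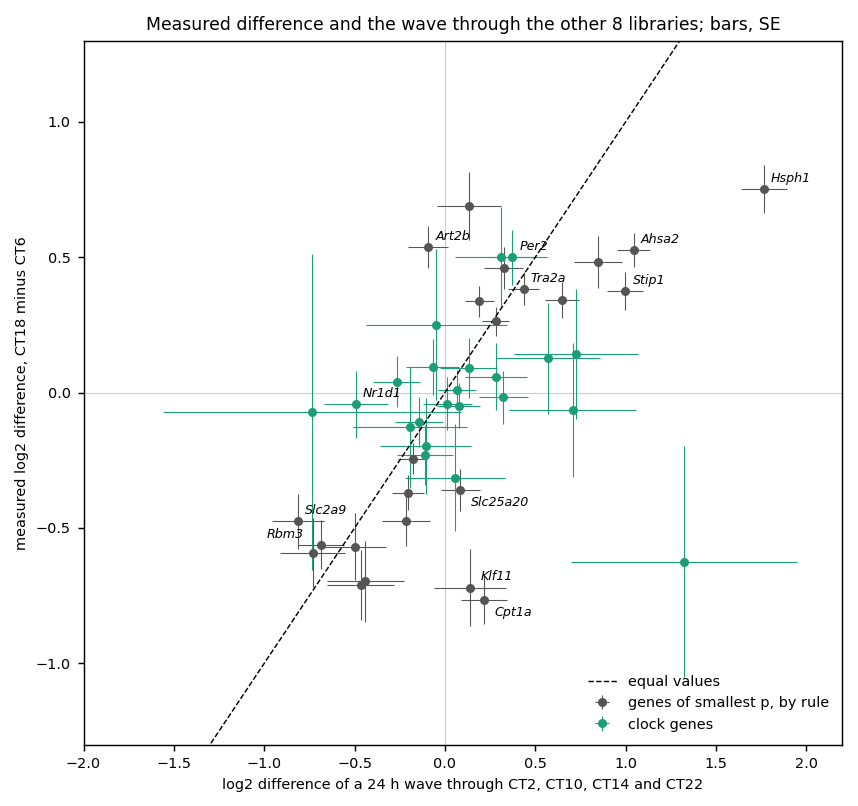
Measured log2 difference, CT18 minus CT6 (vertical axis), against the difference that a 24 h wave through CT2, CT10, CT14 and CT22 gives (horizontal axis), bars showing 1 SE. Shown are the 24 genes named by p, which averaged at least 5 CPM (grey), and the clock genes, Per2 among them (green). The dashed line marks equal values, from which Hsph1 and Cpt1a lie far below.

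Other genes with small p, none of which passed, came from several processes. Art2b, an ADP-ribosyltransferase on the T cell surface, had 65.15 and 64.69 CPM at CT6 and 94.52 and 94.06 CPM at CT18 (0.54 ± 0.08 log2, adjusted p = 0.12). Its flank difference was -0.05, since CT2 was its highest time (118.9 CPM). Tra2a, a splicing regulator, had 118.4 and 108.3 CPM at CT6 and 148.8 and 147 CPM at CT18 (0.38 ± 0.06). Parp3, of DNA repair, differed by 0.34 ± 0.06, Nefh, a neurofilament gene, by 0.46 ± 0.08, and Wdr78, of ciliary dynein, by 0.69 ± 0.13. The amino acid transporter gene Slc16a10 was at 0.48 ± 0.10 and the dynein adaptor gene Bicd2 at 0.26 ± 0.05. Of the 12 higher genes named by p, 11 were lowest at CT6, which the choice of genes higher at CT18 than at CT6 largely fixes. Of the same 12, 9 were highest at CT14, beside 2977 of 16396 genes. The choice also excludes CT6 as their highest time.

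On the lower side, Klf11, which encodes a Krüppel-like repressor, had 9.15 and 9.43 CPM at CT6 and 5.35 and 5.93 CPM at CT18 (-0.72 ± 0.14 log2). Igf1r, the receptor for insulin-like growth factor 1, had 30.2 and 32.44 CPM at CT6 and 21.7 and 23.44 CPM at CT18 (-0.47 ± 0.10). Ctse, the aspartic protease cathepsin E, differed by -0.59 ± 0.13, and Slc2a9, a urate transporter, by -0.48 ± 0.10. Ksr2, a scaffold of the MAP kinase cascade, was at -0.71 ± 0.13, the transcription factor gene Nfia at -0.70 ± 0.15, Scaper at -0.37 ± 0.06 and Ift140, of intraflagellar transport, at -0.24 ± 0.06. Of the 12 lower genes, 6 were highest at CT6 and 6 at CT10, beside 2225 and 3572 of 16396 genes. The choice of genes lower at CT18 than at CT6 favours CT6 and excludes CT18 as the highest time. In all 24 genes the CT6 and CT18 libraries did not overlap, which the choice by p largely fixes.

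Genes of T cell movement were mixed. Cxcr4, the receptor for the bone marrow chemokine CXCL12, had 64.72 and 58.41 CPM at CT6 and 72.44 and 83.93 CPM at CT18 (0.34 ± 0.09 log2). Itgal and Itgb2, the 2 chains of the integrin LFA-1 that holds T cells to vessel walls, differed by 0.23 ± 0.07 and 0.20 ± 0.07. Ccr7 and S1pr1, for entry and exit, were at -0.08 ± 0.06 and -0.12 ± 0.10. Of 16 genes, 5 had an unadjusted p under 0.05, all higher, beside 3.22% of all genes, and none passed. Groups did not overlap in 7 in the higher and 5 in the lower direction, beside 20.4% and 18.3% of all genes. In the FOXO and quiescence list, 2 of 18 were below that p, both lower, beside 2.84% of all genes. They were Pik3ip1 (-0.27 ± 0.09), an inhibitor of PI3K, and Sesn1 (-0.21 ± 0.07).

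Antigen receptor genes were nearly level, while effector and memory genes ran from -0.30 to 0.44 log2 with a median of 0.055. Cd3e had 489.5 and 568.8 CPM at CT6 and 574.1 and 577.6 CPM at CT18 (0.12 ± 0.11 log2). The receptor list had 0 of 11 genes with an unadjusted p under 0.05 and the signalling list 1 of 18, the phosphatase gene Ptpn6 (0.20 ± 0.07). Over all genes 6.06% were below that p in either direction. Tnf and Prf1, for the cytokine TNF and perforin, were at 0.31 ± 0.10 and 0.21 ± 0.08. They were the 2 of 19 effector and memory genes below that p, both higher, beside 3.22% of all genes. Groups did not overlap in 8 of the 19 in the higher and 1 in the lower direction, beside 20.4% and 18.3% of all genes. Of 22 immediate early genes, 20 had a positive difference, beside 8316 of 16396 genes. Only Egr2 (0.31 ± 0.10) and Dusp6 (0.30 ± 0.11) had an unadjusted p under 0.05, beside 3.22% of all genes in the higher direction. Fos went from 100.4 and 189.8 CPM to 110.7 and 189.5 CPM, differing more by day than by phase. Glucocorticoid-responsive genes had 2 higher and 1 lower of 21 at that p, beside 3.22% and 2.84% of all genes. Ddit4, an mTOR inhibitor, was at 0.37 ± 0.12, Tsc22d3 at 0.24 ± 0.14 and Fkbp5 at 0.01 ± 0.12.

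The genes of protein and RNA production differed by small steps of either sign. All 30 cytosolic ribosomal protein genes had a negative difference, with a median of -0.08 log2 and a range of -0.18 to -0.01. None had an unadjusted p under 0.05, 21 had groups that did not overlap in the lower direction, beside 18.3% of all genes, and all 30 also had a negative flank difference, with a median of -0.17. Rpl3, for example, had 1937 and 2053 CPM at CT6 and 1792 and 1810 CPM at CT18. Ribosome biogenesis genes had the opposite sign, 19 of 23 positive with a median of 0.10, and 5 had an unadjusted p under 0.05, all higher, beside 3.22% of all genes. Heatr1, needed for making ribosomal RNA, had 149 and 154.1 CPM at CT6 and 180 and 170.8 CPM at CT18 (0.21 ± 0.06), and Gnl3, a nucleolar GTPase gene, differed by 0.23 ± 0.07. At the flanks this group had a median of -0.01. Splicing factors of the SR family and their kinases had 6 of 18 below that p, all higher, beside 3.22% of all genes, among them Srsf7 (0.23 ± 0.06).

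Other metabolic lists gave few genes. Glycolysis had 2 of 17, Hk2 (0.33 ± 0.13 log2), a hexokinase gene, and Pgam1 (0.22 ± 0.09), both higher. Sterol and lipid synthesis had 3 of 24 higher, among them the desaturase gene Scd2 (0.29 ± 0.10) and the cholesterol exporter gene Abcg1 (0.28 ± 0.11). Amino acid and one-carbon metabolism had 2 higher and 2 lower of 17, with Trib3, a stress-induced pseudokinase gene, at 1.39 and 1.36 CPM at CT6 and 0.64 and 0.59 CPM at CT18 (-1.16 ± 0.31). The respiratory chain genes of the nucleus had 1 of 24, Cox5a (0.23 ± 0.08). Genes of the mitochondrial genome had 3 of 15 at that p, all higher, and the 13 messages among them summed to 25950 and 23580 CPM at CT6 and 24050 and 24080 CPM at CT18. The proteasome, cell cycle and interferon lists had 1 each of 25, 25 and 21, and BCL2 family genes 1 of 13. Beside the 6.06% of all genes below that p in either direction, lists with 1 such gene show no result of their own.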

How the data were processed

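Polyadenylated RNA of 12 libraries, 6 circadian times on each of 2 days, had been sequenced after TRIzol and RNeasy extraction and KAPA library preparation, per the labels. The submitters' processing notes name bcl2fastq 2.19, Trimmomatic 0.35, STAR 2.5.1b, RSEM 1.2.28 and GRCm38. Which gene annotation they used is not given in the sources used here. Raw counts per gene were deposited in STAR's layout. Column 4 was used, because column 3, the opposite strand, left 77.6% to 80.9% of fragments without a gene. Rows that name no gene (29.3% to 31.2% of fragments) were left out. The deposited RSEM expected counts (estimated counts, rounded here) served as an alternative, and the deposited TPM values were not used in tests. Of 50600 identifiers, 50376 matched GENCODE M21. Counts on genes were 24689964 to 33497078 per library.

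Counts were fitted with edgeR 4.0.16 in R 4.3.3, with filterByExpr (16396 genes kept), TMM scaling and 1 coefficient per circadian time over all 12 libraries, so that all times share 1 estimate of the spread. The contrasts were CT18 minus CT6, the flank difference, and the departure from a wave. Each was tested with edgeR's quasi-likelihood F test, with p adjusted over all genes by Benjamini-Hochberg and a threshold of 0.05 for passing. ± after a log2 difference is an SE. On simulated counts for CT18 against CT6 in 16396 genes, 50% of 100 genes changed by 0.5 log2 and 93% of 100 changed by 1 log2 were recovered, with 5 false calls. The changed genes were drawn from those averaging at least 5 CPM, and each gene had the same dispersion in all libraries. In the data the SD of the day 2 to day 1 log2 difference was 0.35 at CT2 and 0.123 at CT18, so these rates may not hold for them.

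Replicate numbers in the labels are days, and libraries with 1 number therefore share a day. Over 10200 genes the day deviations of CT18 and CT6 correlated at 0.108. The day entered as a block only in an alternative. Alternatives were RLE scaling, library size only, DESeq2 1.42.0, no filter, a mean of at least 5 CPM, the block, RSEM counts, fits without CT2, on the 4 libraries alone or with each library left out, and, added after the data were seen, leaving out ribosomal and small RNA genes.

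The comparison, gene lists and naming rule were chosen with earlier results of these data known. The rule took up to 12 passing genes each way with at least 5 CPM, filled by smallest unadjusted p, all clock genes, 2 genes of smallest p in each list, 4 for the departure test, and Cd8a, Cd8b1, Cd3e, Cirbp and Rbm3. Predicted genes, pseudogenes and antigen receptor segments were left out of the first and the departure genes. The text omits some of the genes so chosen, and some items are not reported here. Hspa8, Hspa1a, Chordc1, Fkbp4, Ptges3, Hsp90aa1, Hsp90ab1, Rn7sk and further list members were named after their values were seen.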

Additional observations from a re-analysis of the deposited data

How the results depend on the processing

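Between CT18 and CT6, DESeq2 gave 11 higher and 4 lower genes, no filter 74 and 83, the replicate block (day) 0 and 0, no CT2 libraries 5 and 3, RSEM expected counts 0 and 0, the 4 libraries alone 6 and 0, and the same with the replicate block 21 and 9. Leaving out 1 library gave 0 to 5 and 0 to 3. Scaling by RLE or library size, at least 5 CPM, and leaving out ribosomal and small RNA genes each gave 2 and 1. Hsph1 passed in 13, Ahsa2 in 10 and Cpt1a in 13 of 23 alternatives. For the flank difference (38 and 43), DESeq2 gave 279 and 177, no filter 1074 and 438, at least 5 CPM 69 and 97, the replicate block 12 and 3, no CT2 libraries 495 and 445, library size only 42 and 22, RSEM 30 and 24, and 1 library left out 2 to 1017 and 0 to 724. The departure from a wave (0) gave 9 with DESeq2, 649 with no filter and 0 to 68 with 1 library left out; without both CT2 libraries it is not defined, and the 4 libraries alone give neither. The cause of these shifts was not tested, and some of the fits also had fewer libraries.

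Of 2791 values of 122 named genes under alternatives, 2660 kept sign and side of the threshold, 33 lost it, 74 gained it and 24 changed sign. Clock became -0.00514 with library size only, -0.00129 with at least 5 CPM and -0.0154 with RSEM, and Npas2 0.0943 with RSEM. With 1 library left out, the log2 differences of genes that changed sign ranged from -0.0256 to 0.0504 for Clock, -1.02 to 0.484 for Npas2, -0.0506 to 0.139 for Per1, -0.404 to 0.22 for Per3, -0.0987 to 0.0716 for Cry1, -0.128 to 0.0443 for Dbp, -0.127 to 0.0375 for Tef, -0.0354 to 0.301 for Nfil3, -0.199 to 0.0595 for Bhlhe40 and -0.00217 to 0.272 for Wee1. They ranged from -0.0413 to 0.528 for Igfbp4, -0.114 to 0.0138 for Cox4i1, -0.555 to 0.0572 for Klra8, -0.485 to 0.0541 for Flt3, -2.38 to 2.71 for Ccl21a and -0.0152 to 0.1 for Cd8b1. A lone library at a time is assumed to vary like the other groups. Only 2 libraries per time limit the precision, and small differences may be missed.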

Other observations

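Resident macrophage genes were higher at CT18 within each day while varying widely between libraries. Marco, a scavenger receptor gene, had 23.54 and 28.73 CPM at CT6 and 39.33 and 48.75 CPM at CT18. Cd5l, a secreted macrophage protein gene, had 5.31 and 9.96 CPM at CT6 and 13.77 and 20.66 CPM at CT18, and Siglec1, the sialoadhesin gene, had 22.62 and 28.69 CPM at CT6 and 32.62 and 44.03 CPM at CT18. None passed over the 12 libraries (0.75 ± 0.50, 1.18 ± 0.85 and 0.58 ± 0.45 log2), where Marco ran from 10.26 CPM (CT10, day 1) up to 73.31 CPM (CT22, day 2). All 3 passed in the fit of the 4 libraries alone with the day as a replicate block, together with Hmox1, the heme oxygenase gene, which had 10.51 and 18.36 CPM at CT6 and 22.23 and 34.67 CPM at CT18. These genes were chosen after their values were seen.

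Lars2, the mitochondrial leucyl-tRNA synthetase gene, had 342.1 and 478 CPM at CT6 and 663.2 and 760.1 CPM at CT18 (0.80 ± 0.20 log2, not passing). Its mean was lowest at CT6 (410.1 CPM) and highest at CT14 (900.4 CPM). The ribosomal RNA sums had the same order, with 5476 and 6674 CPM at CT6 and 10350 and 11690 CPM at CT18. A link between them and the Lars2 counts was not tested. The mitochondrial ribosomal RNA mt-Rnr1 had 472.5 and 449.9 CPM at CT6 and 682.8 and 671.4 CPM at CT18 (0.55 ± 0.17), while the other, mt-Rnr2, was at 0.13 ± 0.18. Lars2 was named after its values were seen.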
